A study of Mus musculus with 12 samples.

Results

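The comparison described here sets 6 RNA-seq libraries of congenic mouse embryonic stem cells against 6 libraries of the parental strains, which are all 12 libraries of the series. For every expressed gene the average of both congenic lines was compared with the average of both parental strains. The parental groups, with 3 libraries each, come from the inbred mouse strains C57BL/6J, called B6, and DBA/2J, called D2. The congenic groups, also with 3 libraries each, are B6-13D2, labelled B6.D2-(rs30079041-rs51756099)/Bakr, and D2-13B6, labelled D2.B6-(rs29224292-rs13469455)/Bakr. In the first, part of chromosome 13 comes from D2 on a B6 background, and in the second, part of chromosome 13 comes from B6 on a D2 background. Each background thus stands once on both sides of the comparison. The segments have different end markers, so where only 1 of them reaches, both congenic lines carry the same allele. All 4 groups grew in medium with 15% serum, LIF, the MEK inhibitor PD0325901 at 1 µM and the GSK3 inhibitor CHIR99021 at 3 µM. Per the labels each congenic group is cultures of 1 line, while B6 replicate 3 carries another line name than B6 replicates 1 and 2, and the 2 label fields that name the D2 line disagree. The series text also gives D2-13B6 another end marker of its segment than the sample labels do.

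Congenic status coincides here with the cell line, and with any difference in culture, feeder cells or batch between congenic and parental libraries. Those cannot be told apart from it. The labels do not mention feeder cells, and the column names of the 6 congenic libraries share a prefix that those of the parental libraries lack. The 3 libraries of a group are called technical replicates in their titles and independent cultures in the protocol, so the p-values measure the spread between such cultures of a line and not that between lines.

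Mouse embryonic stem cells held with LIF and inhibitors of MEK and GSK3 are in a naive pluripotent state, which is kept by Pou5f1, Nanog, Esrrb and other transcription factors. The MEK inhibitor lowers ERK signalling. Its feedback genes (Spry and Dusp family members) and immediate early targets (Fos family members) report the activity of that pathway. Such cultures can also hold cells that are not stem cells, among them differentiated cells and the fibroblasts of a feeder layer. Fibroblasts make fibrillar collagens and a contractile actin cytoskeleton, whose genes respond to the factors SRF and YAP.

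The libraries held 22184196 to 36411799 expected counts, and mitochondrially encoded genes took 2.55% to 3.49% of them. Between libraries of 1 group, r across genes, which are not independent replicates, was 0.9942 to 0.9974, and no pair agreed within sampling noise. Levels are given as CPM, that is, counts relative to the library size after TMM scaling. The 7 stem cell markers Pou5f1, Sox2, Nanog, Zfp42, Esrrb, Klf4 and Dppa5a were detected in every library, with summed levels of 3790 to 4132 CPM in B6, 2763 to 2852 in D2, 4291 to 4596 in B6-13D2 and 3394 to 3453 in D2-13B6. All 9 fibroblast markers (Col1a1, Col1a2, Col3a1, Dcn, Lum, Postn, Thy1, Prrx1, Twist2) were detected in every library too, so the libraries hold transcripts of both kinds.

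In the average of both lines, 11059 of 17148 tested genes passed an adjusted p of 0.05 (64.5%; edgeR's quasi-likelihood test with Benjamini-Hochberg adjustment), 5325 higher and 5734 lower in the congenic lines. Within the backgrounds, 10003 genes differed between B6-13D2 and B6 (58.3%; 32.9% lower, 25.4% higher) and 9821 between D2-13B6 and D2 (57.3%; 29.7% lower, 27.6% higher). These 2 comparisons share no library. Which direction holds more genes depends on the scaling: with RLE size factors the averaged comparison had 5931 higher and 5280 lower, and B6-13D2 against B6 had 5340 higher and 4935 lower. A total of 5529 genes (32.2%) passed in the average and in each line with the same sign, 2126 higher (12.4%) and 3403 lower (19.8%), and are called higher or lower in both lines below. In 2713 of them (15.8%) the 6 congenic libraries also lay on one side of all 6 parental libraries, with 826 higher (4.82%) and 1887 lower (11%). At least a 2-fold change in each line was shown by 67 of those that were higher (0.391%) and by 393 of those that were lower (2.29%), so the larger shared changes were mostly decreases. When the counts of each group were summed first, so that the residual spread is the difference between the line effects, edgeR called 437 genes, 28 higher and 409 lower.

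**Figure D1:**
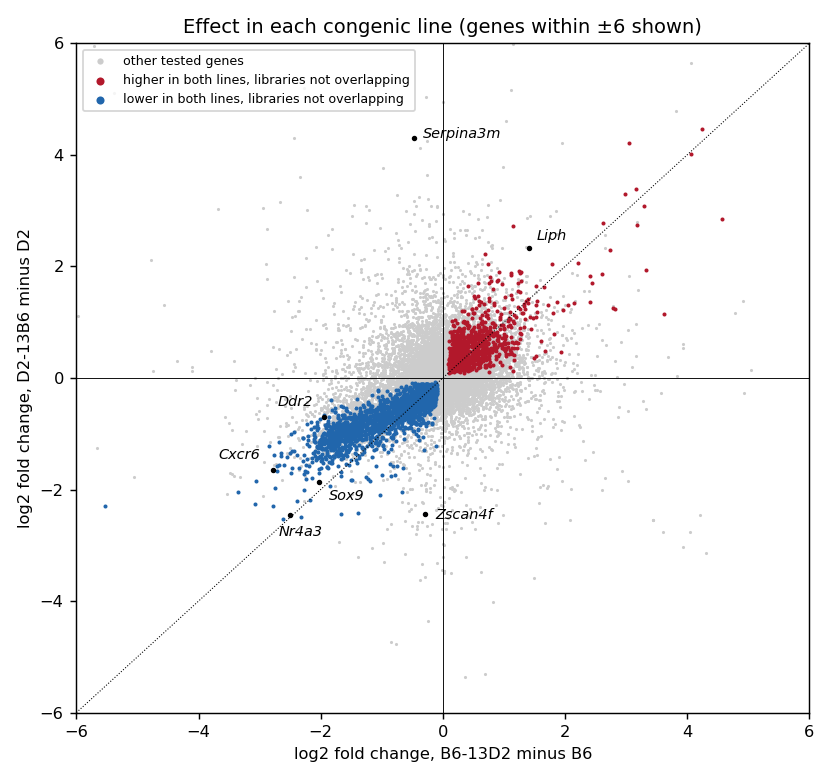
Log2 fold change of each tested gene in B6-13D2 against B6 (horizontal) and in D2-13B6 against D2 (vertical), with genes that are higher or lower in both lines and do not overlap between congenic and parental libraries in colour, and 15 genes beyond ±6 left out. At least a 2-fold change in both lines is shown by 393 of the 1887 lower genes and 67 of the 826 higher genes.

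Of the protein-coding genes that were lower in both lines, the 12 with the largest change in the less affected line, among genes above a low level and with undivided counts, included Nr4a3, Sox9, C1qtnf3, Cxcl14, Ereg, Spry4, Id1, Cxcr6, Smoc2, Chrdl1 and Irx3. They were chosen for these comparisons, so their fold changes describe them and serve as no further test. In the fit on counts summed by group, all 12 still passed, with edgeR adjusted p of 0.0469 to 0.0486, and the naming rule favours genes with like effects in both lines. Pairs of log2 fold changes are given for B6-13D2 against B6 first and for D2-13B6 against D2 second.

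Ligands among the 12 included Cxcl14, Ereg and C1qtnf3. Cxcl14 (ENSMUSG00000021508, chromosome 13, 56288643 to 56296551, GRCm38), a chemokine, had 231, 214 and 199.9 in D2, 143, 145 and 141 in B6, 61.6, 63.3 and 59.2 in D2-13B6 and 31.4, 32.2 and 27.1 in B6-13D2 (CPM, replicates 1 to 3). Its congenic and parental libraries did not overlap, and the lowest group was B6-13D2. The averaged log2 fold change of Cxcl14 was -2.02 (edgeR adjusted p 3.08e-17, SE 0.041), with -2.24 between B6-13D2 and B6 and -1.81 between D2-13B6 and D2. Ereg, epiregulin, a ligand of the EGF receptor, averaged 24.3 ± 0.527 in D2, 13.7 ± 0.392 in B6, 7.4 ± 0.706 in D2-13B6 and 2.83 ± 0.221 in B6-13D2 CPM (SD, n = 3), and its log2 fold changes were -2.28 between B6-13D2 and B6 and -1.71 between D2-13B6 and D2. C1qtnf3, a secreted protein of the C1q and TNF related family, averaged 28.8 ± 1.91 in D2, 10.2 ± 0.498 in B6, 7.57 ± 0.555 in D2-13B6 and 2.83 ± 0.414 in B6-13D2, and its effects were close in size, at -1.85 and -1.93. The receptor Cxcr6, which binds the chemokine Cxcl16, had 12.2, 13 and 10.2 in D2, 10.5, 9.7 and 9.05 in B6, 4.03, 3.96 and 3.27 in D2-13B6 and 1.9, 1.21 and 1.09 in B6-13D2, with log2 fold changes of -2.79 between B6-13D2 and B6 and -1.65 between D2-13B6 and D2.

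Of the transcription factors, Nr4a3 (ENSMUSG00000028341, chromosome 4, 48045153 to 48086447), an orphan nuclear receptor and immediate early gene, had 10.8, 9.54 and 10.6 in D2, 5.45, 4.99 and 4.67 in B6, 2.11, 1.63 and 1.91 in D2-13B6 and 0.969, 0.57 and 1.13 in B6-13D2. Every congenic library was below every parental one, and the effects in both lines were close. The averaged log2 fold change was -2.48 (edgeR adjusted p 2.24e-12, SE 0.116), with -2.51 between B6-13D2 and B6 and -2.45 between D2-13B6 and D2. Sox9 (chromosome 11, 112782224 to 112787760), a factor of cartilage and testis development, had 14.6, 13.6 and 13.8 in D2, 7.07, 7.05 and 7.55 in B6, 3.97, 4.1 and 3.44 in D2-13B6 and 1.56, 1.51 and 2.3 in B6-13D2. The log2 fold change of Sox9 was -1.94 (edgeR adjusted p 1.09e-12, SE 0.086). Id1 (chromosome 2, 152736251 to 152737410), an inhibitor of bHLH factors that BMP signalling induces, had 44.9, 43.6 and 38 in D2, 22.3, 22.8 and 22.7 in B6, 12.1, 12.9 and 12.3 in D2-13B6 and 7.03, 7.08 and 7.21 in B6-13D2. Its effects, -1.67 and -1.76, were among the most alike in both lines. Irx3, a homeobox factor, averaged 22.7 ± 3.81 in D2, 13.7 ± 1.77 in B6, 7.65 ± 0.889 in D2-13B6 and 3.0 ± 0.429 in B6-13D2, with log2 fold changes of -2.19 and -1.57.

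Spry4 (chromosome 18, 38586247 to 38601415), an inhibitor that ERK signalling induces against itself, had 24.8, 25.5 and 24.7 in D2, 12.2, 12.7 and 13.4 in B6, 8.58, 7.64 and 7.08 in D2-13B6 and 3.12, 4.33 and 4.6 in B6-13D2. Its log2 fold change was -1.68 (edgeR adjusted p 5.13e-13, SE 0.071), with -1.67 between B6-13D2 and B6 and -1.68 between D2-13B6 and D2. Chrdl1, a BMP antagonist on chromosome X, averaged 8.78 ± 1.09 in D2, 4.27 ± 0.139 in B6, 2.86 ± 0.0652 in D2-13B6 and 1.16 ± 0.074 in B6-13D2 CPM (SD, n = 3), with -1.88 and -1.61. Smoc2, a matricellular protein, averaged 98 ± 3.35 in D2, 58.8 ± 1.82 in B6, 31.9 ± 0.52 in D2-13B6 and 14.8 ± 1.12 in B6-13D2. All 12 genes had their highest mean in D2, then B6, then D2-13B6, and their lowest in B6-13D2.

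**Figure D2:**
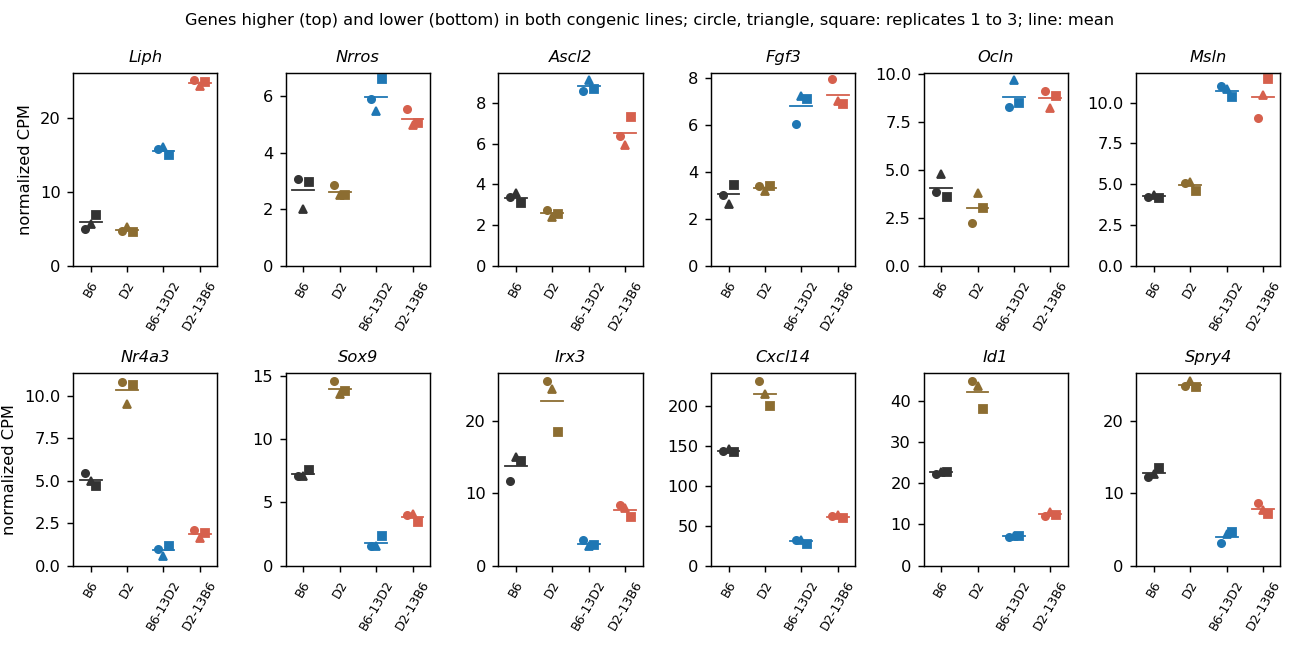
Normalized CPM of 6 genes that were higher and 6 that were lower in both congenic lines, with 1 point per library and a line at the group mean. In each panel the congenic libraries lie on one side of the parental libraries.

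Of 23 tested fibroblast markers, all 23 were lower in the average (33.4% of all genes were) and 22 in both lines, 16 of them without overlap of libraries. Their median log2 fold change was -1.24, with -1.54 in B6-13D2 and -0.93 in D2-13B6, against 0.00, -0.04 and 0.00 over all genes tested. Summed over the list, levels were 22411 to 23807 CPM in B6, 31893 to 36189.9 in D2, 9154 to 9303 in B6-13D2 and 17953 to 18729.7 in D2-13B6. In the fit on counts summed by group, 14 of the 23 passed, against 2.55% of all genes. Col1a1 and Col1a2, the chains of type I collagen, changed by -1.62 and -1.0 and by -1.65 and -1.0. Col1a1 had 11311, 10658 and 9485 in D2, 6829.5, 6248 and 6207 in B6, 5308, 5257 and 5116 in D2-13B6 and 2135, 2079.9 and 2063 in B6-13D2 CPM. Pdgfrb, the PDGF receptor of mesenchymal cells, had 57.7, 55 and 50.0 in D2, 34, 32.3 and 32.2 in B6, 24.5, 24.2 and 25.3 in D2-13B6 and 12.5, 11.8 and 12.5 in B6-13D2, and its log2 fold change was -1.28 (edgeR adjusted p 9.5e-15, SE 0.041). Dcn, the proteoglycan decorin, was the member not lower in both lines. It had 3.12, 2.53 and 2.78 in D2, 1.36, 1.51 and 1.24 in B6, 2.91, 2.68 and 3.23 in D2-13B6 and 0.658, 0.772 and 0.491 in B6-13D2 CPM and a log2 fold change of 0.07 (edgeR adjusted p 0.743, SE 0.164) in D2-13B6 against D2. Less RNA of these genes per cell and fewer cells that express them cannot be told apart in bulk RNA. The markers include extracellular matrix genes that other mesenchymal cells also use.

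The order of group means in D2, B6, D2-13B6 and B6-13D2, from highest to lowest, was that of 17 of the 23 fibroblast markers (73.9%) and of 2536 of all 17148 tested genes (14.8%). It was also the order of 1502 of the 1887 genes that were lower in both lines without overlap (79.6%) and of 384 of the 393 with at least a 2-fold change (97.7%). This order was looked at after the values were seen, and the choice of lower genes fixes which groups lie above, though not the order within each pair. How far the level of fibroblast markers takes part in the other genes' differences was not tested.

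**Figure D3:**
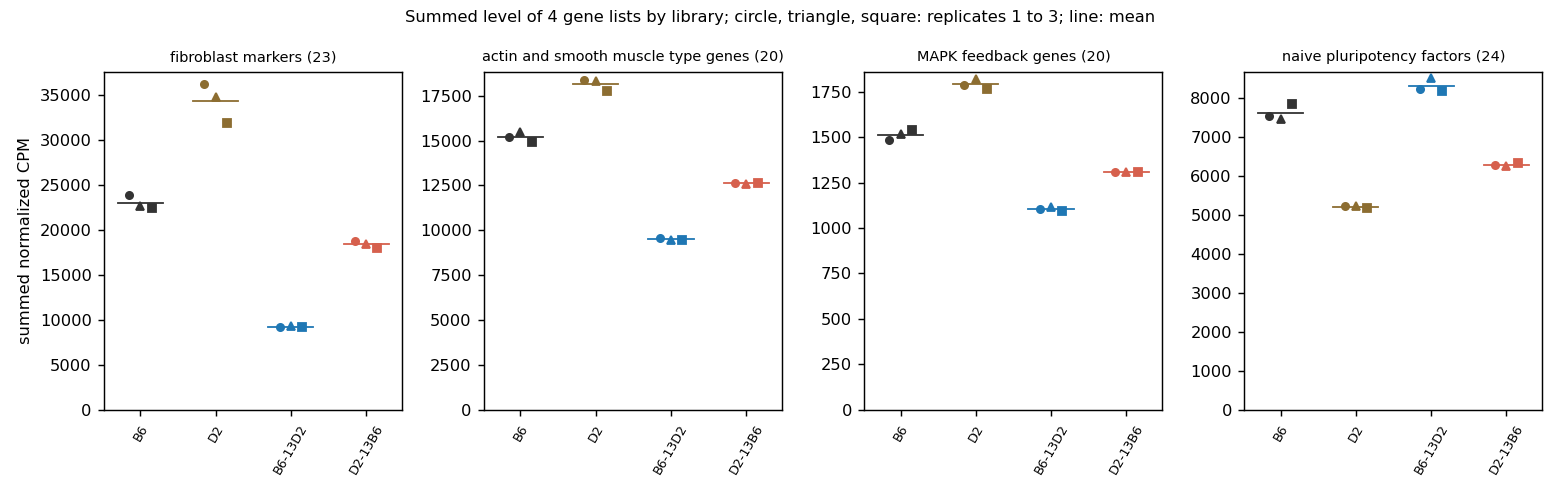
Summed normalized CPM of 4 gene lists in each library, with the number of genes in brackets, 1 point per library and a line at the group mean. The fibroblast, actin and MAPK feedback lists are lowest in B6-13D2 and highest in D2, and the pluripotency list is highest in B6-13D2 and lowest in D2.

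Contractile genes were lower together. Of 20 tested actin and smooth muscle type genes, 19 were lower in the average and in both lines, and 16 did not overlap between congenic and parental libraries. Over all genes these shares were 33.4%, 19.8% and 11%. The median was -1.08, with -1.34 in B6-13D2 and -0.83 in D2-13B6, and summed levels were 14939 to 15499 CPM in B6, 17766 to 18388 in D2, 9447 to 9598 in B6-13D2 and 12573 to 12654 in D2-13B6. Acta2, smooth muscle actin, had 1738, 1709 and 1579 in D2, 1124, 1158 and 1074 in B6, 811, 818 and 818 in D2-13B6 and 308, 310.5 and 311 in B6-13D2 CPM. Its log2 fold changes were -1.85 between B6-13D2 and B6 and -1.04 between D2-13B6 and D2. Cnn1 (ENSMUSG00000001349, chromosome 9, 22099216 to 22109630), calponin, an actin-binding protein of smooth muscle, had 253, 253 and 239 in D2, 173, 176 and 176 in B6, 118, 117 and 109 in D2-13B6 and 47.1, 46.5 and 46.5 in B6-13D2, and its averaged log2 fold change was -1.51 (edgeR adjusted p 2.27e-17, SE 0.027). Tagln, transgelin, which also binds actin, averaged 697 ± 39.4 in D2, 498 ± 17.3 in B6, 329 ± 5.83 in D2-13B6 and 139 ± 4.06 in B6-13D2. The actins that most cells express changed less, Actb by -0.17 and -0.38 and Actg1 by -0.40 and -0.14. Cnn3 did not pass the test in the average, with an edgeR adjusted p of 0.212 and effects of -0.14 and 0.07.

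Promoters of these genes are shown because their known regulator, SRF with its cofactors, binds the CArG box, a motif of CC, then 6 bases each A or T, then GG, which is its own reverse complement in this form. Within 250 bases before to 50 after the start given by RefSeq (GRCm38.p6), it was present in 4 of 17 matched promoters of the actin and smooth muscle list (23.5%), against 164 of the 12115 promoters that could be matched to the 17148 tested genes by symbol and chromosome (1.35%). It was in 42 of 1443 promoters of genes lower in both lines without overlap (2.91%), in 6 of 618 of the higher ones (0.971%) and in 0 of 14 of the fibroblast list. The TEAD motif GGAATG, searched on both strands, was in 7 of 12 promoters of the YAP and SRF list (58.3%), 6 of 17 of the actin and smooth muscle list (35.3%), 2 of 14 of the fibroblast list (14.3%), 1 of 11 of the MAPK feedback list (9.09%) and 1488 of all 12115 (12.3%). It was in 197 of 1443 promoters of genes lower in both lines without overlap (13.7%) and in 58 of 618 of the higher ones (9.39%). A match describes letters and not a bound site. The YAP and SRF list consists of genes known as targets of these factors, so its share of motifs is no result of these data. The same holds for the CArG box in the actin and smooth muscle list, whose known regulator is SRF. Of the 4 promoters of the actin and smooth muscle list, that of Actg1, whose change was small (above), is not printed. The other promoters follow with the CArG box in capitals, from Cnn2 (chr10:79988350-79988649, plus strand), Myl9 (chr2:156775214-156775513, plus strand) and Vcl (chr14:20929148-20929447, plus strand).
Cnn2: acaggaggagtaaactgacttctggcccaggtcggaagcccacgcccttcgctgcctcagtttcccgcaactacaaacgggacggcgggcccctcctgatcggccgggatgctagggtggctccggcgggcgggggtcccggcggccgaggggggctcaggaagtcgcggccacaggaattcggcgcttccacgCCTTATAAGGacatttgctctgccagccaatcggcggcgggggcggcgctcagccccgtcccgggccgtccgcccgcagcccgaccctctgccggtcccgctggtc
Myl9: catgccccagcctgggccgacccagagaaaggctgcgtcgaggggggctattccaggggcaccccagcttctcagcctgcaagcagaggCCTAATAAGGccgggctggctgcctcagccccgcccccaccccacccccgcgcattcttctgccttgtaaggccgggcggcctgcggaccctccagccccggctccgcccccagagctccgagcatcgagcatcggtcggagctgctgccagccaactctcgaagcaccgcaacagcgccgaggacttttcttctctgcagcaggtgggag
Vcl: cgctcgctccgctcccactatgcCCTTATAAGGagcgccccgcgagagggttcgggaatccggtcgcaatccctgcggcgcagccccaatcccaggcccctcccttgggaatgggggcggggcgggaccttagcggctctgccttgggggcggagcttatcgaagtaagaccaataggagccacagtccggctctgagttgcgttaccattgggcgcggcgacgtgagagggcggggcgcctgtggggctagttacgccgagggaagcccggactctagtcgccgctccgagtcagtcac
The box lies 56 to 47 bases before the start in Cnn2, 161 to 152 in Myl9 and 227 to 218 in Vcl. Cnn2, another calponin, had 309, 302 and 280.4 in D2, 213, 232 and 215 in B6, 164, 165 and 164 in D2-13B6 and 91.4, 88.4 and 91.4 in B6-13D2 CPM, with log2 fold changes of -1.28 between B6-13D2 and B6 and -0.86 between D2-13B6 and D2. Myl9, a regulatory myosin light chain, had 219, 208 and 208 in D2, 149.9, 149 and 139.6 in B6, 104, 108 and 107 in D2-13B6 and 39.6, 41.6 and 39.6 in B6-13D2, with -1.86 and -1.0 in the same order. Vcl, vinculin of focal adhesions, had 789, 782 and 734 in D2, 571, 579 and 545 in B6, 452, 446 and 435 in D2-13B6 and 214, 222 and 209 in B6-13D2, with -1.39 and -0.79, and its counts were partly divided among similar sequences. In each of the 3 genes the lowest group was B6-13D2 and no congenic library reached a parental one.

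Of 16 tested targets of YAP and SRF, 15 were lower in the average and 14 in both lines, 13 without overlap (33.4%, 19.8% and 11% of all genes), with a median of -1.17. Thbs1, thrombospondin 1, a matricellular protein, had 7115, 6843 and 6489 in D2, 4556, 4668 and 4328 in B6, 2751, 2743 and 2603 in D2-13B6 and 1352, 1346 and 1321 in B6-13D2 CPM, and its averaged log2 fold change was -1.55 (edgeR adjusted p 2.27e-17, SE 0.027). Ankrd1 changed by -2.14 and -1.44, and Ccn1 and Ccn2, secreted proteins often read as YAP targets, by -1.26 and -0.89 and by -1.49 and -1.03. Tead1, a DNA-binding partner of YAP, had -0.28 and 0.02 and was lower in the average and in B6-13D2. Ajuba did not pass there (edgeR adjusted p 0.0822). In the fit on counts summed by group, 9 of the 16 genes of this list and 9 of the 20 actin and smooth muscle type genes passed.

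Feedback and immediate early genes of MAPK signalling, the MAPK feedback list, fell in both lines in 15 of 20 cases (19.8% of all genes did). Of the 20, 11 were lower without overlap and 16 in the average, against 11% and 33.4% of all genes. When counts were summed by group, 4 of the 20 passed (2.55% of all genes did). The median of the list was -0.87, with -0.72 in B6-13D2 and -0.93 in D2-13B6. Fosl1, an AP-1 subunit of the Fos family, changed by -2.0 and -1.25. Fos (chromosome 12, 85473890 to 85477273), the AP-1 subunit, had 98.9, 96.5 and 92.8 in D2, 55.3, 51.2 and 53.3 in B6, 27.5, 28.1 and 29.9 in D2-13B6 and 28.4, 30.2 and 30.1 in B6-13D2 CPM. Both congenic lines were near the same level of Fos, so that its change was -0.85 from B6 and -1.75 from D2. Fosb, listed with the YAP and SRF targets, changed by -1.22 and -1.81 and Egr1, an immediate early zinc finger factor, by -0.67 and -1.17. Dusp6, a phosphatase of ERK, changed by -1.5 and -0.85 and Spry2 by -0.50 and -1.26. Myc had 58.4, 57.7 and 60.1 in D2, 40.6, 44.4 and 42.3 in B6, 30.1, 29.5 and 29.7 in D2-13B6 and 11.5, 12.2 and 13.5 in B6-13D2, and its averaged log2 fold change was -1.38 (edgeR adjusted p 1.33e-15, SE 0.038). The list did not move as a block, since Etv4 changed by 0.78 and -1.03 and Spred2 by -0.16 and 0.35, and Spry1, Etv5 and Dusp2 did not pass in the average (edgeR adjusted p 0.285, 0.397 and 0.942).

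Among BMP and TGF-beta genes, 11 of 18 were lower and 4 higher in the average (33.4% and 31.1% of all genes were). In both lines 9 were lower and 3 higher, where 19.8% and 12.4% of all genes were. With counts summed by group 5 of the 18 passed, against 2.55% of all genes. The lower ones included Id3, with 133, 129.6 and 108 in D2, 110.1, 103 and 123 in B6, 56.3, 54.8 and 54.6 in D2-13B6 and 31.9, 36 and 31.2 in B6-13D2 CPM and a log2 fold change of -1.46 (edgeR adjusted p 6.91e-14, SE 0.053). Msx2 changed by -1.78 and -1.1 and the inhibitory Smad7 by -0.56 and -0.56. Bmp4 itself, a ligand listed with the Wnt targets, had 41.6, 40.2 and 41.6 in D2, 22.8, 21.1 and 19.3 in B6, 16.5, 17 and 17.3 in D2-13B6 and 6.92, 5.7 and 5.51 in B6-13D2, with -1.8 and -1.28. The 3 higher members were Lefty1 (1.04 and 0.53), Lefty2 (1.14 and 0.48) and Dusp9 (0.31 and 0.35); Lefty1 and Lefty2 are Nodal antagonists that stem cells secrete. Members of 1 family thus stood on both sides of 0. Collagens and basement membrane genes were lower in both lines in 11 of 19 cases, among them Serpinh1, a collagen chaperone (-1.19 and -0.94), Lamb1 (-1.22 and -0.90), Col4a2 (-1.59 and -0.86), Lox (-1.65 and -0.83) and Loxl2 (-1.46 and -0.81), and Nid2 was the member that was higher in both (0.10 and 0.19).

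Genes of antigen presentation were lower in both lines in 9 of 15 cases and higher in 1, against 19.8% and 12.4% of all genes. B2m (chromosome 2, 122147686 to 122153083), the light chain of class I molecules, had 601, 597 and 588 in D2, 339, 355 and 345 in B6, 269, 270.1 and 270.2 in D2-13B6 and 114, 128 and 123 in B6-13D2 CPM, and its averaged log2 fold change was -1.33 (edgeR adjusted p 4.21e-17, SE 0.027). H2-T23 changed by -1.19 and -0.65 and Psmb8, an immunoproteasome subunit, by -0.99 and -0.64. Of 19 interferon and nucleic acid sensing genes, 11 were lower and 2 higher in both lines. Ifih1, a sensor of double-stranded RNA, changed by -1.92 and -0.89 and Irf7 by -1.21 and -1.18, while the interferon signal transducer Stat2 was higher by 0.74 and 0.64. In most of these lower genes the libraries overlapped, and the exceptions were B2m, Tapbp, Irf9 and Ifit2. With counts summed by group, 2 of the 15 antigen presentation genes and 0 of the 19 interferon genes passed, and 2.55% of all genes did.

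Targets of p53 were lower in both lines in 11 of 20 cases, against 19.8% of all genes (12.4% were higher, which also holds for the lists that follow), with a median of -0.27, and 1 was higher (Sesn1, 0.27 and 0.66). With counts summed by group, 1 of the 20 passed. Pmaip1, which encodes the apoptosis factor Noxa, had 131, 131 and 133 in D2, 128, 139 and 136 in B6, 74.1, 78.7 and 73.6 in D2-13B6 and 76.7, 86.2 and 76.5 in B6-13D2 CPM, with both parental groups at one level and both congenic groups at another. Cdkn1a, the cell cycle inhibitor p21, changed by -0.93 and -0.39 and Plk2 by -1.65 and -0.67. Of 18 endoplasmic reticulum chaperones, 10 were lower and 2 higher in both lines (median -0.16), the higher ones being Sdf2l1 (0.66 and 0.54) and Xbp1 (0.09 and 0.37). Of 22 autophagy and lysosome genes 11 were lower and 3 higher (median -0.24). Mitochondrially encoded genes were lower in both lines in 7 of 15 cases and higher in 0, with summed levels of 30622 to 36379.8 CPM in B6, 28936 to 34943 in D2, 25077 to 26631 in B6-13D2 and 31154 to 32962 in D2-13B6, so that the sums of D2 and D2-13B6 overlapped. Of these genes mt-Cytb, which encodes cytochrome b, had 2255, 2358 and 2542 in D2, 2434, 2711 and 2573 in B6, 1598, 1648 and 1739 in D2-13B6 and 1525, 1615 and 1610.2 in B6-13D2 CPM and a log2 fold change of -0.61 (edgeR adjusted p 1.89e-11, SE 0.033). Of 28 nuclear subunits of oxidative phosphorylation, 0 were lower and 5 higher in both lines, with 13 higher and 1 lower in the average, against 12.4% of all genes higher in both lines and 31.1% in the average. Of 24 ATF4 and amino acid response genes, 12 were higher and 7 lower in the average, and 3 were higher and 7 lower in both lines. The median was 0.42 in B6-13D2 and -0.33 in D2-13B6. Of its members lower in both lines, Slc7a11, the cystine transporter, changed by -1.4 and -0.97 and Atf5, a stress response factor, by -0.82 and -1.08.

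Of the 1887 genes lower in both lines without overlap, 259 (13.7%) had a mean in D2-13B6 at or below that in B6-13D2, against 7915 of all 17148 tested genes (46.2%). Of the fibroblast markers 0 of 23 did, and the shares were not compared by a test. The examples given here were chosen after their values were seen. Hes1 (chromosome 16, 30064384 to 30067796), a Notch target and repressor, had 92.5, 83 and 83.1 in D2, 74.1, 77.5 and 58.5 in B6, 31.2, 29.5 and 27.8 in D2-13B6 and 34.5, 40.8 and 40.0 in B6-13D2 CPM, and its averaged log2 fold change was -1.21 (edgeR adjusted p 7.07e-12, SE 0.061). Gsto1, a glutathione transferase, had 107, 112 and 107 in D2, 227, 233 and 231 in B6, 61.1, 59.7 and 64.2 in D2-13B6 and 96.4, 101 and 95.1 in B6-13D2, and its parental groups stood in the reverse order to most lower genes, B6 above D2. Dusp1, a MAPK phosphatase, had 211, 211 and 192 in D2, 157, 165 and 170.0 in B6, 94.2, 97.1 and 96.4 in D2-13B6 and 104, 108 and 103 in B6-13D2, and Fos and Pmaip1 above belong to the same set. Tiam2, an activator of Rac, averaged 25.5 ± 1.88 in D2, 29.2 ± 1.09 in B6, 13.6 ± 0.0705 in D2-13B6 and 14.4 ± 1.34 in B6-13D2.

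Of the 67 genes higher in both lines with at least a 2-fold increase in each line and no overlap, 56 are protein-coding. Among all 17148 tested genes 14989 are. Chromosome 11 holds 15 of the 67 (8.08% of the tested genes) and chromosome X 12 (3.64%). Those on chromosome X include 9 Xlr genes with divided counts, described below. The 12 named by the same rule as the lower ones included Liph, Ascl2, Ace, Fgf3, Ocln, Ybx2, Sarm1, Msln, Nrros, Pld6 and C130074G19Rik, of which Ace, Ybx2, Sarm1 and Pld6 are on chromosome 11. In the fit on counts summed by group, 2 of the 12 passed (Liph, edgeR adjusted p 0.0469, and C130074G19Rik, 0.0499), and the others had 0.0541 to 0.11.

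Liph (ENSMUSG00000044626, chromosome 16, 21953817 to 21995663), a lipase that makes lysophosphatidic acid, had 4.71, 5.28 and 4.6 in D2, 5.01, 5.67 and 6.95 in B6, 25.2, 24.4 and 24.9 in D2-13B6 and 15.8, 16.1 and 15 in B6-13D2 CPM. The congenic libraries had at least 15.0 and the parental ones at most 6.95, and the log2 fold change was 1.87 (edgeR adjusted p 2.18e-14, SE 0.063), with 1.41 between B6-13D2 and B6 and 2.34 between D2-13B6 and D2. Ascl2 (chromosome 7, 142966829 to 142969264), an imprinted bHLH factor, had 2.75, 2.42 and 2.55 in D2, 3.38, 3.57 and 3.09 in B6, 6.39, 5.92 and 7.35 in D2-13B6 and 8.62, 9.16 and 8.72 in B6-13D2, with effects of 1.4 and 1.35 in B6-13D2 and D2-13B6. Fgf3 (chromosome 7, 144838083 to 144844436), a fibroblast growth factor, had 3.37, 3.2 and 3.41 in D2, 3.03, 2.64 and 3.43 in B6, 7.95, 7.03 and 6.87 in D2-13B6 and 6.06, 7.21 and 7.1 in B6-13D2, with 1.16 and 1.14. Both congenic groups of Fgf3 overlapped each other and lay above both parental groups.

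At the cell surface, Ocln (chromosome 13, 100496507 to 100552718), occludin of tight junctions, had 2.25, 3.81 and 3.0 in D2, 3.82, 4.78 and 3.6 in B6, 9.1, 8.25 and 8.88 in D2-13B6 and 8.31, 9.7 and 8.49 in B6-13D2, and its averaged log2 fold change was 1.31 (edgeR adjusted p 2.55e-09, SE 0.101). Msln, mesothelin, a surface glycoprotein, averaged 4.94 ± 0.299 in D2, 4.25 ± 0.106 in B6, 10.3 ± 1.2 in D2-13B6 and 10.7 ± 0.361 in B6-13D2 CPM (SD, n = 3), and Nrros, which holds latent TGF-beta, averaged 2.63 ± 0.214 in D2, 2.68 ± 0.581 in B6, 5.2 ± 0.315 in D2-13B6 and 6.0 ± 0.572 in B6-13D2. Ace (chromosome 11, 105967945 to 105989964), angiotensin-converting enzyme, had 1.5, 1.86 and 1.37 in D2, 1.41, 1.43 and 1.5 in B6, 10.6, 10.8 and 10.4 in D2-13B6 and 3.57, 3.22 and 2.79 in B6-13D2, so that most of its averaged change came from D2-13B6 (2.72, against 1.15 in B6-13D2). Ybx2, an RNA-binding protein of germ cells, changed by 1.09 and 1.18. Sarm1, an enzyme that degrades NAD, changed by 1.09 and 1.08. Pld6, a mitochondrial surface protein of the piRNA pathway, changed by 0.96 and 0.96. C130074G19Rik, with no role stated here, had 11.2, 9.71 and 9.47 in D2, 18, 17.4 and 18 in B6, 19.1, 18.7 and 20.6 in D2-13B6 and 33.8, 35.2 and 37 in B6-13D2, and B6 and D2-13B6 were close to each other. Of further genes off chromosomes 11, 13 and X, Aire, known for its role in the thymus, averaged 20.4 ± 1.74 in D2, 19 ± 0.327 in B6, 38.1 ± 2.7 in D2-13B6 and 45.7 ± 3.53 in B6-13D2, and Gls2, a glutaminase, 19.6 ± 1.36 in D2, 14.4 ± 0.601 in B6, 34.1 ± 1.75 in D2-13B6 and 35.2 ± 1.08 in B6-13D2.

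Of the 67 genes with at least a 2-fold increase in each line, 9 were the Xlr3, Xlr4 and Xlr5 genes, a cluster on chromosome X named for its regulation in lymphocytes. Their counts were divided among similar copies, so single members are uncertain. The naming rule left them out, and they were chosen after their values were seen. The 9 tested members were among the genes higher in both lines without overlap, but several had only a few counts in the parental libraries and passed the filter through the congenic ones, so the tally supports nothing. Summed over the 9, the level was 11.2, 11.1 and 10.7 in D2, 5.67, 6.38 and 6.09 in B6, 70.6, 76.4 and 77.3 in D2-13B6 and 50.7, 54.8 and 52.9 in B6-13D2 CPM. Both congenic groups lay far above both parental groups, and D2 was above B6 as D2-13B6 was above B6-13D2. Xlr3a (chromosome X, 73086293 to 73097095) averaged 2.9 ± 0.192 in D2, 2.19 ± 0.107 in B6, 19.5 ± 1.66 in D2-13B6 and 19.8 ± 1.14 in B6-13D2 CPM, and its averaged log2 fold change was 2.96 (edgeR adjusted p 1.43e-16, SE 0.069). Xlr3b (73192207 to 73202930) averaged 4.22 ± 0.427 in D2, 2.29 ± 0.0988 in B6, 21 ± 0.482 in D2-13B6 and 15.3 ± 0.899 in B6-13D2 and Xlr3c (73254540 to 73265390) 2.11 ± 0.684 in D2, 0.585 ± 0.127 in B6, 20.7 ± 1.11 in D2-13B6 and 4.67 ± 0.683 in B6-13D2. The averaged log2 fold change was 2.52 in Xlr3b and 3.14 in Xlr3c. Single Xlr4 and Xlr5 genes averaged 0.0864 to 0.23 CPM in B6, and no fold is given for them.

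Pluripotency factors were mostly higher by small amounts. Of 24 naive pluripotency factors, 16 were higher and 5 lower in the average (31.1% and 33.4% of all genes were). In both lines 12 were higher and 1 lower (12.4% and 19.8% of all genes were). The median was 0.18, and summed levels were 7472 to 7859 CPM in B6, 5167 to 5232 in D2, 8189 to 8504 in B6-13D2 and 6257 to 6332 in D2-13B6. In no member did all congenic libraries lie above all parental ones. Nanog had 495, 511 and 550.3 in D2, 639, 692 and 691 in B6, 653, 670.3 and 672 in D2-13B6 and 788, 803 and 784 in B6-13D2 CPM, with log2 fold changes of 0.23 between B6-13D2 and B6 and 0.36 between D2-13B6 and D2. Zfp42 (Rex1) had 61.4, 65.6 and 58 in D2, 66.8, 63.4 and 72.4 in B6, 74.4, 72.4 and 79.8 in D2-13B6 and 80.2, 83.2 and 81.3 in B6-13D2, with 0.27 and 0.29. Pou5f1 changed by 0.15 and 0.22, Tdgf1, a Nodal coreceptor, by 0.31 and 0.62 and Fgf4 by 0.12 and 0.72. The member lower in both was Dppa3 (Stella), at -0.99 and -0.78, and Klf4 had -0.38 and 0.02, the second not past the test. Counts of 7 of the 24 members, among them Pou5f1, Nanog and Tdgf1, were partly divided among similar sequences. The summed level of the list was highest in B6-13D2 and lowest in D2, as the fibroblast sum was lowest in B6-13D2 and highest in D2, and the part of one in the other was not tested.

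Genes of epithelial junctions were higher in the average in 11 of 18 cases and in both lines in 7, with 1 lower, and 31.1% and 12.4% of all genes were higher. Without overlap 3 were higher (4.82% of all genes were). The list summed to 912 to 930 CPM in D2-13B6, 1244 to 1277 in B6, 731 to 785 in D2 and 1408 to 1417 in B6-13D2. Cldn7, a claudin, averaged 0.898 ± 0.051 in D2, 2.68 ± 0.198 in B6, 1.91 ± 0.297 in D2-13B6 and 7.54 ± 1.11 in B6-13D2 CPM, with 1.49 and 1.09, beside Ocln above. Epcam, an adhesion molecule of stem cells, changed by 1.11 and 0.20 and Cdh1, E-cadherin, by 0.18 and 0.90. Keratins went in different directions, with Krt8 at -0.58 and 0.89 and Krt19 at -0.29 and -0.39.

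Proliferation genes were higher by small amounts. Of 25 DNA replication genes 23 were higher and 0 lower in the average, and 15 were higher in both lines, with a median of 0.22. Over all genes 31.1% were higher in the average and 12.4% in both lines. The replication list summed to 4052 to 4136 CPM in D2-13B6, below B6 (4893 to 5141) and above D2 (3648 to 3801). In B6-13D2 the sum was 5854 to 6046. Without overlap of libraries 5 of the 25 were higher (4.82% of all genes were). The helicase subunit Mcm6 changed by 0.37 and 0.23, the polymerase subunit Pole by 0.32 and 0.46 and Cdc6, a licensing factor, by 0.26 and 0.85. Of 20 cell cycle and mitosis genes, 16 were higher and 0 lower in the average and 12 higher in both lines, with Aurkb, a mitotic kinase, at 0.38 and 0.73 and Top2a at 0.17 and 0.95. Cdc6, Aurkb and Top2a lie on chromosome 11, whose median was 0.42 above that of the other autosomes in D2-13B6, and the part of this was not tested. The cell cycle list also summed to less in D2-13B6 (3385 to 3410 CPM) than in B6 (3581 to 3715). Without overlap 4 of its 20 genes were higher. Mki67 did not pass in the average (edgeR adjusted p 0.247). By contrast Ccnd2, cyclin D2, was lower, with 583, 591 and 539 in D2, 395, 398 and 362 in B6, 275, 264 and 262 in D2-13B6 and 120.2, 117 and 118 in B6-13D2 CPM and -1.7 and -1.1. In the fit on counts summed by group, 0 genes of the replication, cell cycle, pluripotency and epithelial lists passed.

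Glycolysis was higher in the average in 18 of 21 genes (31.1% of all genes) and in both lines in 9 (12.4%). None was lower in both, and 0 passed with counts summed by group (2.55% of all genes did). Without overlap 4 were higher (4.82%). The list summed to 15223 to 15371 CPM in D2-13B6, 16203 to 17397.5 in B6, 13868 to 14264 in D2 and 19886 to 20794 in B6-13D2. Slc16a3 (chromosome 11, 120948480 to 120960868), a lactate exporter on chromosome 11, had 67.9, 63.4 and 53.9 in D2, 73, 63.9 and 74.3 in B6, 96.7, 93.6 and 95.4 in D2-13B6 and 144, 146 and 141 in B6-13D2 CPM, and its averaged log2 fold change was 0.83 (edgeR adjusted p 1.75e-11, SE 0.045). The glucose transporters Slc2a1 and Slc2a3 changed by 0.92 and 0.43 and by 0.54 and 0.77, hexokinase 2 (Hk2) by 0.89 and 0.39 and Aldoc by 1.72 and 0.40. Pkm, pyruvate kinase, did not pass (edgeR adjusted p 0.298). Of 14 fatty acid synthesis genes, 5 were higher and 2 lower in both lines. Cholesterol synthesis was higher in the average in 18 of 24 genes but in both lines in 3, where 31.1% and 12.4% of all genes were, and its median was 0.40 in B6-13D2 and -0.10 in D2-13B6. Lower in both lines were 2 members (19.8% of all genes were), Sc5d (-0.34 and -0.49) and Hsd17b7. Hsd17b7 had 37.3, 39.2 and 38.6 in D2, 38.3, 40.0 and 39.5 in B6, 24.8, 25.3 and 25.4 in D2-13B6 and 19.5, 19.1 and 20.3 in B6-13D2 CPM. Of 35 cytosolic ribosomal protein genes, 13 were higher in the average (31.1% of all genes were) and 2 in both lines, 21 and 4 with RLE size factors, and counts of 29 were divided among copies.

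Chromatin genes changed modestly. Of 20 polycomb subunits 15 were higher and 3 lower in the average (31.1% and 33.4% of all genes were). In both lines 9 were higher (12.4% of all genes were), and 0 passed with counts summed by group (2.55% of all genes did). Ezh1 (chromosome 11, 101191115 to 101226463), a histone H3K27 methyltransferase, had 22.6, 21.9 and 23.8 in D2, 24.6, 24.4 and 25.1 in B6, 41.3, 40.3 and 41.3 in D2-13B6 and 40.9, 37.4 and 37.5 in B6-13D2 CPM, and its averaged log2 fold change was 0.75 (edgeR adjusted p 2.67e-12, SE 0.035). Phf19 changed by 0.66 and 0.69 and Cbx2 by 0.35 and 0.90; Ezh1, Cbx2 and Pcgf2 are genes of chromosome 11. Of 20 genes of H3K9 methylation and HP1, 5 were higher and 0 lower in both lines (12.4% and 19.8% of all genes were). In the average 11 were higher and 3 lower (31.1% and 33.4%), and 0 passed with counts summed by group (2.55%). Imprinted genes were split, with 7 of 25 higher and 8 lower in both lines (12.4% and 19.8% of all genes were). Plagl1 changed by 1.17 and 0.41 and Phlda2 by 0.32 and 0.93. Igf2 changed by -1.37 and -0.65 and Igf2r by -0.98 and -0.82.

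**Figure D4:**
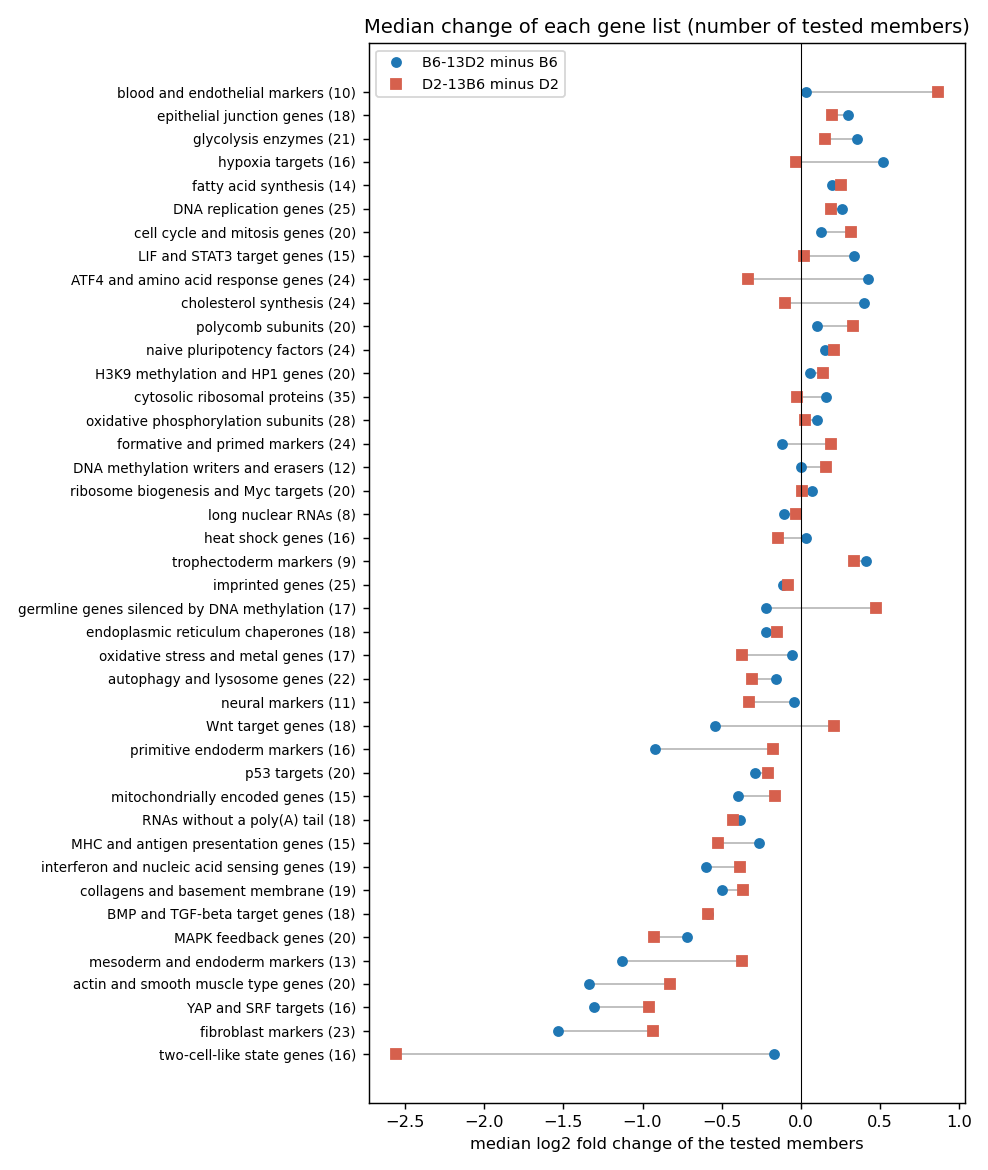
Median log2 fold change of each gene list in B6-13D2 against B6 (circles) and D2-13B6 against D2 (squares), with the number of tested members in brackets. The fibroblast, actin and YAP or SRF lists lie between -1.54 and -0.83 in both lines, and the list of the two-cell-like state is far below 0 in D2-13B6, at -2.56, and near 0 in B6-13D2, at -0.17.

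Higher genes were unevenly spread over chromosomes. Chromosome 11 held 184 of the 826 genes that were higher in both lines without overlap (22.3%), against 8.08% of the tested genes. Its median log2 fold change exceeded that of the other autosomes by 0.42 in D2-13B6 against D2 and by 0.033 in B6-13D2 against B6. In D2-13B6, the median of every 10-Mb window along chromosome 11 was above 0, from 0.137 to 0.461. Chromosome 13, which carries the segments, held 16 of the 826 (1.94%, against 3.72% of the tested genes), and its median differed from that of the other autosomes by -0.155 in D2-13B6 and by -0.071 in B6-13D2. Without chromosomes 11, 13, X and Y, 645 genes were higher and 1550 lower in both lines without overlap.

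**Figure D5:**
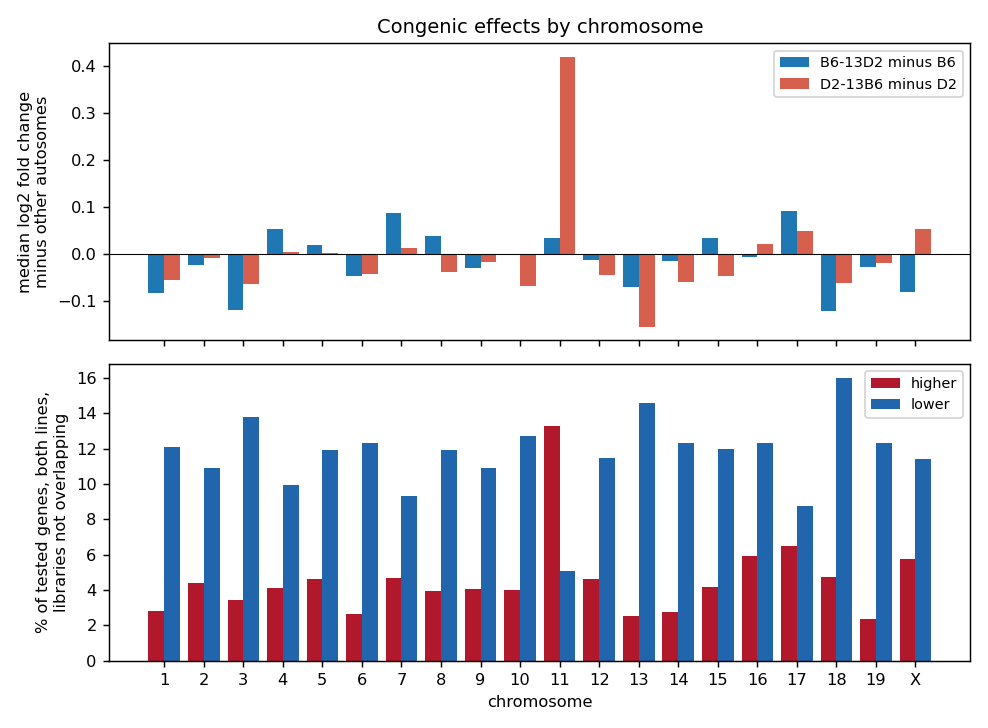
By chromosome, the median log2 fold change minus that of the other autosomes in each congenic line (top) and the percentage of tested genes that are higher or lower in both lines without overlap (bottom). Chromosome 11 in D2-13B6 is 0.42 above the other autosomes, and 13.3% of its genes are in the higher set.

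The averaged comparison also held genes in which the lines moved apart. Of the 11059 genes, 474 (2.76% of those tested) passed in each line with opposite signs, and the line effects differed by more than 2-fold in 330 genes (1.92%; edgeR's glmTreat), 20 of which passed with the same sign in both lines. An example is the list of the two-cell-like state. Its 16 tested genes were all lower in the average (33.4% of all genes were), while 2 were lower in both lines (19.8% of all genes were). Zscan4f (chromosome 7, 11397915 to 11402318), a zinc finger gene of that state with divided counts, had 85.7, 85.5 and 99.8 in D2, 22.8, 22.7 and 25 in B6, 15.4, 18 and 16.4 in D2-13B6 and 18.6, 19.3 and 19.6 in B6-13D2 CPM. The D2 libraries stood apart, and the libraries of the other groups lay between 15.4 and 25.0. Zscan4f is 1 of the 2 members lower in both lines, with unequal effects of -0.29 and -2.44.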

How the data were processed

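RNA-seq was measured in 12 libraries of 4 groups with 3 libraries each. The values are the expected counts that the authors deposited per gene and library. Per the file name they come from EMASE, which shares out reads that map to more than 1 place, so they need not be whole. Per the submitters' processing notes the tools include Bowtie 1.0.0 and edgeR 3.34.1 and the genome build is mm10. Other settings are not given in the sources used here. Of all values 88.1% were whole to within 1e-06. GENCODE M21 gave symbols and positions for 42462 of 43346 gene IDs, and the rest held 0.361% of the reads. Overlapping and antisense genes are uncertain, as strand use is not given.

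Expected counts were rounded and tested with edgeR 4.0.16 in R 4.3.3: filterByExpr (groups as given, minimum count 10), TMM, a quasi-likelihood fit of 4 group means, and Benjamini-Hochberg adjustment over 17148 genes at 0.05. Standard errors are the absolute log2 fold change over the square root of F. The named genes are, per direction, the 12 protein-coding genes with the largest smaller-of-both line effect among those with no overlap, mean log2 CPM not below 2 and whole counts. Up to 3 members per gene list and 4 genes with opposite line effects were added by rule, and other genes are list members or were chosen after their values were seen. The comparison, gene lists and tests were all chosen with earlier results of these data known. No column was left out. Some genes that the rule names are not reported here. On simulated counts (16791 genes) all groups shared the same mean profile, and 200 genes were changed alike in both congenic lines. There the fit recovered 74% of 1.5-fold and 86% of 2-fold changes of the averaged comparison, with 9 false calls. Strain and line differences were not simulated, so these figures do not give the error rate of the real comparison. Alternatives were DESeq2 1.42.0, RLE size factors, other filters, a replicate block, sums per group and leaving out each library.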

Additional observations from a re-analysis of the deposited data

Results flagged for a closer look

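In 6 of the genes named by rule the effects of the congenic lines differed by more than 2-fold (edgeR's glmTreat, Benjamini-Hochberg). Genes added to the text in other ways are not part of this count. The value given is the log2 fold change in B6-13D2 against B6 minus that in D2-13B6 against D2. Serpina3m, a serine protease inhibitor on chromosome 12, had -4.78 (edgeR adjusted p 2.74e-11), from -0.47 and 4.31 in the lines. Usp26, a deubiquitinase gene on chromosome X, had -3.29 (edgeR adjusted p 2.57e-06), from -0.53 and 2.76. Ehd3, a gene of endosomal trafficking, had -1.68 (edgeR adjusted p 0.000595), from -1.42 and 0.26. Sgcb, beta-sarcoglycan of the muscle membrane, had -1.55 (edgeR adjusted p 0.000175), from -1.39 and 0.15. These 4 were named for opposite signs, so their difference is no independent result. Zscan4f of the two-cell-like state had 2.15 (edgeR adjusted p 5.39e-08), from -0.29 and -2.44. Ddr2, a collagen receptor, had -1.24 (edgeR adjusted p 0.0263), from -1.94 and -0.70, so it was lower in both lines with unequal size.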

How the results depend on the processing

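No named gene with a call in the averaged comparison reversed under an alternative that tested it, but of 245 named genes 174 lost their call with counts summed by group and 132 with a 2-fold minimum. Of named genes without one, Cnn3 (-0.032), Dusp2 (-0.021) and Etv5 (-0.024) had 0.000, 0.011 and 0.009 with RLE size factors and the same values with DESeq2, and Dusp2 ranged from -0.131 to 0.141 when 1 library was left out. Sums over the libraries of each group called 437 genes, 28 higher and 409 lower (436 of them also called in the fit on single libraries), because 1 residual degree of freedom then measures the difference between the line effects. With a 2-fold minimum (1 on the log2 scale) added to the test, there were 1726 genes in the averaged comparison (401 higher, 1325 lower), 2478 in B6-13D2 against B6 (592 higher, 1886 lower), 1537 in D2-13B6 against D2 (715 higher, 822 lower), 644 in both lines (124 higher, 520 lower) and, without overlap, 67 higher and 393 lower. RLE size factors moved the median of all genes by 0.032 on the log2 scale, and 52.9% of calls were then higher, against 48.2%; with DESeq2 it was 52.8%. Etv4 (-0.090) lost its call with DESeq2, and Pkm (0.056) gained one there and with RLE.

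Leaving out 1 library gave 10600 to 11113 calls in the averaged comparison (5029 to 5480 higher, 5463 to 5757 lower), 9314 to 10323 in B6-13D2 against B6 (3971 to 4692 higher, 5209 to 5796 lower), 8795 to 9984 in D2-13B6 against D2 (4152 to 4786 higher, 4634 to 5198 lower) and 5110 to 5531 in both lines (1917 to 2195 higher, 3159 to 3403 lower). Without overlap of libraries the ranges were 801 to 937 higher and 1792 to 2096 lower. Krt8 lost its call without B6 replicate 2, D2 replicate 2, B6-13D2 replicate 1 or 3, or D2-13B6 replicate 2 (0.120 to 0.147), and Ajuba gained one without B6 replicate 2 (-0.088) or D2 replicate 3 (-0.093).

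A replicate block (the number in the title) gave 10966 calls in the averaged comparison (5268 higher, 5698 lower), 9911 and 9664 in the lines, 5478 in both lines, and 821 higher and 1876 lower without overlap. Deviations of same-numbered libraries had a mean correlation of -0.009 over 18 pairs (-0.149 to 0.087), and 5 of 12 libraries correlated best with their own number, and the labels do not pair the cultures.

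Each value of a congenic line rests on cultures of 1 line, so the shared differences rest on 2 congenic lines and few parental ones. Genes with divided counts depend on how EMASE assigned their reads. They include the Xlr and most ribosomal protein genes, Tdgf1, Lefty1, Slc2a3, Slc7a11, Bnip3, Pecam1, Uhrf1, H2-T23 and Cubn. Of simulated 2-fold changes, made without strain or line differences, the averaged comparison found 86%. A missing call does not show that a gene is at 1 level.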

Other observations

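Of 13 tested mesoderm and endoderm markers, 6 were lower and 0 higher in both lines (19.8% and 12.4% of all genes were), namely Foxf1 (-2.01 and -1.41 in B6-13D2 against B6 and D2-13B6 against D2), Foxc1 (-1.81 and -1.24), Twist1 (-1.55 and -0.92), Hand2 (-1.13 and -0.72), Msx1 (-1.16 and -0.86) and the Msx2 given above, which also act in mesenchyme. Foxf1 is near the floor, with a mean of 0.224 CPM in B6-13D2 and 1.57 in D2. Of 16 primitive endoderm markers, 6 were lower in both lines, and 4 of these are matrix genes that other lists share (Lamb1, Col4a1, Col4a2 and Sparc). The others were Cubn (-1.87 and -1.16) and Dab2 (-1.46 and -0.44). Gata6, which defines that lineage, had -1.08 and -0.06, and Sox17 had 0.47 and 1.53. Counts were low for Sox17, with 6 to 22 in the parental libraries, and for Cubn, with 13 to 23 in B6-13D2. Oxidative stress genes were lower in both lines in 7 of 17 cases, among them Srxn1 (-0.90 and -0.80), Nqo1 (-0.65 and -0.63) and Hmox1 (-0.59 and -0.64). Of 15 LIF and STAT3 target genes 4 were higher and 4 lower in both lines: Rhox5 changed by 0.76 and 0.22 and Klf5 by 0.44 and 0.19, and Junb by -0.93 and -1.11 and Osmr, the oncostatin M receptor, by -1.54 and -0.69. Of 18 RNAs without a poly(A) tail 3 were lower in both lines (19.8% of all genes were), and 12 were not called in the average.

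Of 10 markers of blood and endothelium, 5 were higher and 1 lower in the average, and 2 were higher and 1 lower in both lines, where 12.4% of all genes were higher and 19.8% lower. Pecam1 (chromosome 11, 106654217 to 106750628), an adhesion molecule of endothelium that stem cells also express, averaged 63.4 ± 7.12 in D2, 72.5 ± 0.902 in B6, 162 ± 1.68 in D2-13B6 and 111 ± 1.14 in B6-13D2 CPM (SD, n = 3), with 0.62 and 1.36. Lyz2, lysozyme of macrophages, averaged 36.8 ± 0.404 in D2, 17.7 ± 2.09 in B6, 66.9 ± 1.62 in D2-13B6 and 20.1 ± 1.32 in B6-13D2, with 0.19 and 0.86, and Flt1, a VEGF receptor, was lower (-1.36 and -0.75). Of 16 hypoxia targets 4 were higher and 1 lower in both lines, and the medians were 0.52 in B6-13D2 and -0.03 in D2-13B6. Egln3 changed by 1.39 and 0.71, Bnip3 by 0.88 and 0.53 and P4ha1, the lower member, by -0.55 and -0.69. Of 12 DNA methylation genes 3 were higher and 1 lower in both lines (12.4% and 19.8% of all genes were), with a median of 0.04 in the average. Uhrf1 changed by 0.68 and 0.17 and Dnmt3l by 0.69 and 0.45. Mbd2, which was lower (-0.53 and -0.58), was the member whose libraries did not overlap.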
